A study of Mus musculus with 18 samples.

Results

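The 39 genes described here encode proteins of the sarcomere and of the Z-disc that anchors it, and were taken by symbol from the deposited table of raw counts, which holds 23337 genes. They comprise 8 genes of the thick filament, 11 of the thin filament, 5 of titin, the M-band and myosin upkeep, and 15 of the Z-disc. The study induced GLI1, a transcription factor that carries Hedgehog signals into the nucleus, for a short time in cells on their way to the cardiac fate. PolyA RNA was sequenced from mouse embryonic stem cells (mESCs) differentiating into cardiomyocytes, and 18 libraries were collected on 4 days.

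All groups came from the GLI1-FTA cell line in the A2Lox.cre background. GLI1 overexpression (OE) cells received 500 ng/ml doxycycline for 24 hours between D5 and D6, and were then washed, with 3 libraries made at D6, 2 at D8 and 2 at D12. Untreated control cells gave 4 libraries at D5, 3 at D6, 2 at D8 and 2 at D12. Since doxycycline was given to none of the controls, effects of the drug and of GLI1 cannot be told apart. Libraries are named by day, condition and the number their column carries. The labels give no separate cultures for the replicates, and the spread that p-values are measured against may therefore be technical.

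In a sarcomere, myosin of the thick filament pulls on actin of the thin filament, and troponin and tropomyosin make that pull depend on calcium. Titin spans from the M-band in the middle to the Z-disc at the end, where alpha-actinin cross-links the actin filaments of neighbouring sarcomeres and a group of scaffold and stretch-sensing proteins assembles. Early cardiomyocytes start with embryonic forms of several of these proteins and later exchange them for adult forms. In bulk RNA, fewer cardiomyocytes and less of a transcript per cardiomyocyte cannot be told apart.

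Total counts ran from 18470785 to 26184339 per library. Gli1, the induced gene, had 891, 1050 and 785 CPM (counts scaled to library size) in D6 GLI1 OE libraries 4, 12 and 16, against 6.84, 21.4 and 13.7 CPM in D6 control libraries 3, 11 and 15 (log2 fold change 6.02 ± 0.589 SE, adjusted p = 4.31e-05 by the quasi-likelihood test of edgeR). At D8 it had 0.925 and 1.45 CPM in GLI1 OE and 0.752 and 1.18 CPM in control libraries, and at D12 0.795 and 1.12 CPM against 0.808 and 0.902 CPM. Neither later difference passed (adjusted p = 0.976 and 0.997 by edgeR). Cardiac identity was checked with 13 transcription factor genes, all of which passed the expression filter, and their summed level was 839 to 3030 CPM over the 18 libraries. The 10 genes of the skeletal muscle list summed to 108 to 712 CPM, of which desmin (Des), shared with heart muscle, averaged 173 to 536 CPM per group. Among its regulators, Myog averaged 2.11 CPM in D12 GLI1 OE and at most 0.0925 CPM in the other groups, while Myod1 stayed at or below 0.179 CPM in every group mean.

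The starting sequences of the genes share some letters that muscle promoters are known for. RefSeq promoters of assembly GRCm38.p6 were found for 35 of the 39 genes and were read over the 250 bases before the annotated start. Myom2, Tcap, Cryab and Xirp1 were not matched. The CArG box, the motif of serum response factor, stood in 7 of the 35 (20%) and in 1.4% of all 27025 promoters. The MEF2 box stood in 5 (14.3%), against 0.518% of all promoters. The M-CAT motif CATTCC, bound by TEAD factors, stood in 12 (34.3%, against 12.6%), the GATA motif AGATAA in 8 (22.9%, against 10.3%), the E-box CAGCTG in 7 (20%, against 12.8%) and the TATA box TATAAA in 4 (11.4%, against 13%). The letters GACCACCCA, a motif of GLI factors, were in 0 of the 35 and in 0.211% of all promoters. Both strands were searched, motifs were allowed to overlap, and a match is a description of the letters, not of binding.

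The promoters of 6 genes are printed because the genes carry the results below: Actc1, Ttn and Myh6 as genes that followed the whole set closely or stood far below it at D6, Tpm2 as the gene called lower at D6, Ankrd1 as one called there with a replicate block added after the data were seen and in no unpaired fit, and Myl3 as a gene with equal means at D6. All are given 5′ to 3′ on the strand of the gene, in GRCm38.p6 of RefSeq, at chr2:114052876-114053125 minus strand (Actc1), chr2:76982548-76982797 minus strand (Ttn), chr14:54966608-54966857 minus strand (Myh6), chr19:36119845-36120094 minus strand (Ankrd1), chr4:43523555-43523804 minus strand (Tpm2) and chr9:110763428-110763677 plus strand (Myl3). Capitals mark the CArG box in Actc1 and Myl3, the MEF2 box in Ttn, the E-box in Tpm2, the M-CAT motif on either strand in Myl3, Myh6 and Ankrd1, and the GATA motif on the opposite strand in Ankrd1.
Actc1: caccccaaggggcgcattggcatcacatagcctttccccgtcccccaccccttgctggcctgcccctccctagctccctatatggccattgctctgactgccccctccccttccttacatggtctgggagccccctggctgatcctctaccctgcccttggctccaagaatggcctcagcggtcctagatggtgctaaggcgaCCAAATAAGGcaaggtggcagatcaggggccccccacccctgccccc
Ttn: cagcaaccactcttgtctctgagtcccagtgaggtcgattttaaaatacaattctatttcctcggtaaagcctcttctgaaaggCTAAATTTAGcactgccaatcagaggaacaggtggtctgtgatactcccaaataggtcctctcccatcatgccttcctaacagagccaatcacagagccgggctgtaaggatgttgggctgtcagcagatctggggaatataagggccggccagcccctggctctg
Myh6: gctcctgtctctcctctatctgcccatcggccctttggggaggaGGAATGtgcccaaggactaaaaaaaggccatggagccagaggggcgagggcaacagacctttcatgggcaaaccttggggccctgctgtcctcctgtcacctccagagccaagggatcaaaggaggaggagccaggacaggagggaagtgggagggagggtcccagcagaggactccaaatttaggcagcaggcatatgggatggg
Ankrd1: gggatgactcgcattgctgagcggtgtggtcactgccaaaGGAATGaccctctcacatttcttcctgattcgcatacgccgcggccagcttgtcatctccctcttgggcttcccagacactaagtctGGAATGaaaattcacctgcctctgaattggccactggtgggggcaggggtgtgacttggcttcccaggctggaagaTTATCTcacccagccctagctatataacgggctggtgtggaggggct
Tpm2: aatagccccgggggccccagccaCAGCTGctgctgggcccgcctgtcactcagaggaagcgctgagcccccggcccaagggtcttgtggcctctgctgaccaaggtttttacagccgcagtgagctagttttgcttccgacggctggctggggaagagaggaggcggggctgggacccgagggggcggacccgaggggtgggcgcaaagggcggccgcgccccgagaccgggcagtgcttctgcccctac
Myl3: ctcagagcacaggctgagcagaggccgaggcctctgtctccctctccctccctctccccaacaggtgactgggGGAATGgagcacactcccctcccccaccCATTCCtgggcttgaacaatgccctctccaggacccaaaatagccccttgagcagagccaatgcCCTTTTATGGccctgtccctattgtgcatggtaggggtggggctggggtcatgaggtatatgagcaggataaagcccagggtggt

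The genes differed widely in level when the pulse began. In TPM, a unit that corrects for transcript length, which the authors deposited for the 4 D5 controls, Tpm1, the main cardiac tropomyosin gene, was highest at 4480 ± 236 TPM (SD, n = 4). After it came the atrial light chain gene Myl7 (1590 ± 672), the cardiac troponin T gene Tnnt2 (1210 ± 520), the cardiac actin gene Actc1 (956 ± 485) and the troponin C gene Tnnc1 (918 ± 249 TPM), and these 4 did not differ from their neighbours in the order beyond their spread, while Tpm1 stood above them in every library. At the low end, Myom2 averaged 0.397 ± 0.3 TPM and Myoz2 0.243 ± 0.297 TPM, and Xirp2 was listed at 0 in all 4 libraries. Over the whole experiment Xirp2 had 34 counts, did not pass the filter of a minimum count of 10 and was not tested, which left 38 genes among the 14892 tested.

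The D5 controls were unlike each other. The 39 genes took 1.22% and 1.21% of all counts in libraries 1 and 2, and 0.649% and 0.836% in libraries 3 and 4. The regulatory light chain gene Myl2 had 40.7 and 38.3 CPM in libraries 1 and 2 and 1.16 and 3.25 CPM in libraries 3 and 4. Tpm1 hardly varied, with 3020, 3210, 3060 and 3270 CPM. The chi-square between libraries 1 and 2 was 6.85 per gene, above sampling noise, and between any other D5 libraries it was 50.5 to 93.7. All 4 were treated as separate samples, but whether libraries 1 and 2 share a culture is not given.

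**Figure D1:**
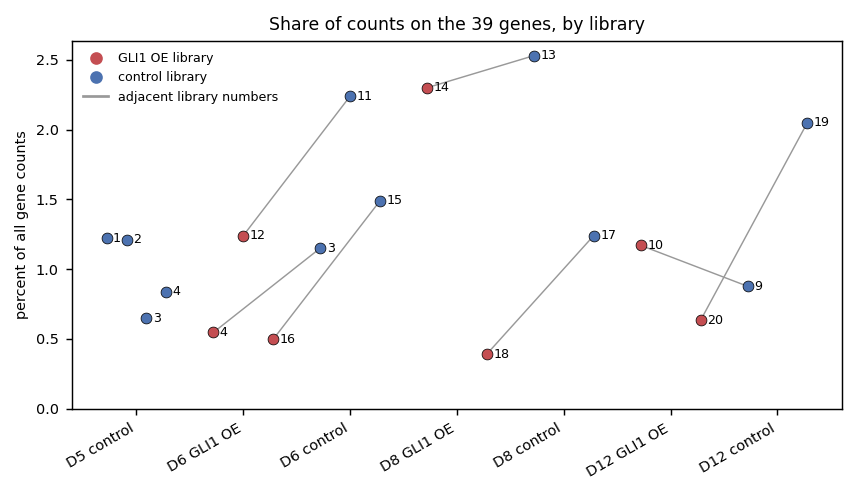
Share of all gene counts, in percent, that fell on the 39 sarcomere and Z-disc genes in each library, by group; numbers are library numbers and grey lines join adjacent numbers. The D6 GLI1 OE libraries lay at 0.497 to 1.24% and the D6 controls at 1.15 to 2.24%, while D8 GLI1 OE library 18 had 0.391%.

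At D6 most of the contractile genes had lower estimates in GLI1 OE than in control cells. The genes took 0.546%, 1.24% and 0.497% of counts in D6 GLI1 OE libraries 4, 12 and 16, against 1.15%, 2.24% and 1.49% in D6 control libraries 3, 11 and 15. Each GLI1 OE library lay below the control library with the adjacent number, but GLI1 OE library 12 lay above control library 3, so the groups overlapped. The median log2 fold change of the 38 genes was -1.05, with 36 estimates below 0, while the median of all 14892 genes was -0.0154 and 53% of them were below 0. Leaving out GLI1 OE library 12 moved the median of the 38 to -1.70, while it was nearer 0 when GLI1 OE libraries 4 (-0.87) and 16 (-0.91) or control library 11 (-0.77) were left out 1 at a time. GLI1 OE was lower in all 3 adjacent pairs for 34 of the 38 genes, which held for 32.7% of all genes. The groups did not overlap for 17 of the genes, all lower, which held for 13.8% of all genes.

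How many of these differences passed a test depended on how the libraries were treated. In the edgeR model of all 18 libraries, whose spread includes the unlike D5 controls, 1 gene fell (Tpm2) and 0 rose, where 1.12% of all genes were called lower, 3.02% higher and 4.14% either way, and 10 of the 38 had an unadjusted p under 0.05, as had 15.8% of all genes. DESeq2 called 3 lower (6.63% of all genes either way), limma-voom 1 (4.19%) and edgeR on the 6 D6 libraries alone 8 (9.19%). The D6 libraries also deviated together by adjacent number (correlations of 0.617, 0.445 and 0.52 between the deviations of paired libraries from their group means, and at most 0.0208 between the others). Deviations cancel within a group, so the low values between the others follow in part from the high ones of the pairs. With those pairs as a replicate block, edgeR called 2 in the model of all libraries (Tpm2 and Ankrd1, where 4.48% of all genes were called) and 22 of 37 in a fit of the D6 libraries alone, all lower, beside 17% of all genes called lower, 16.6% higher and 33.6% either way. The paired fits were added after the data were seen, and the labels do not say that adjacent numbers share a culture. At D12 the deviations of adjacent libraries correlated at -0.231. Without libraries 3 and 4 the paired D6 fit called 11 (24.3% of all genes), without libraries 11 and 12 it called 26 (28.3%), and without libraries 15 and 16 it called 26, of which 2 were higher (20.8%). The authors' deposited table for D6 lists 12 of the genes as lower and 0 as higher at an adjusted p under 0.05, beside 5.95% of its genes lower.

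**Figure D2:**
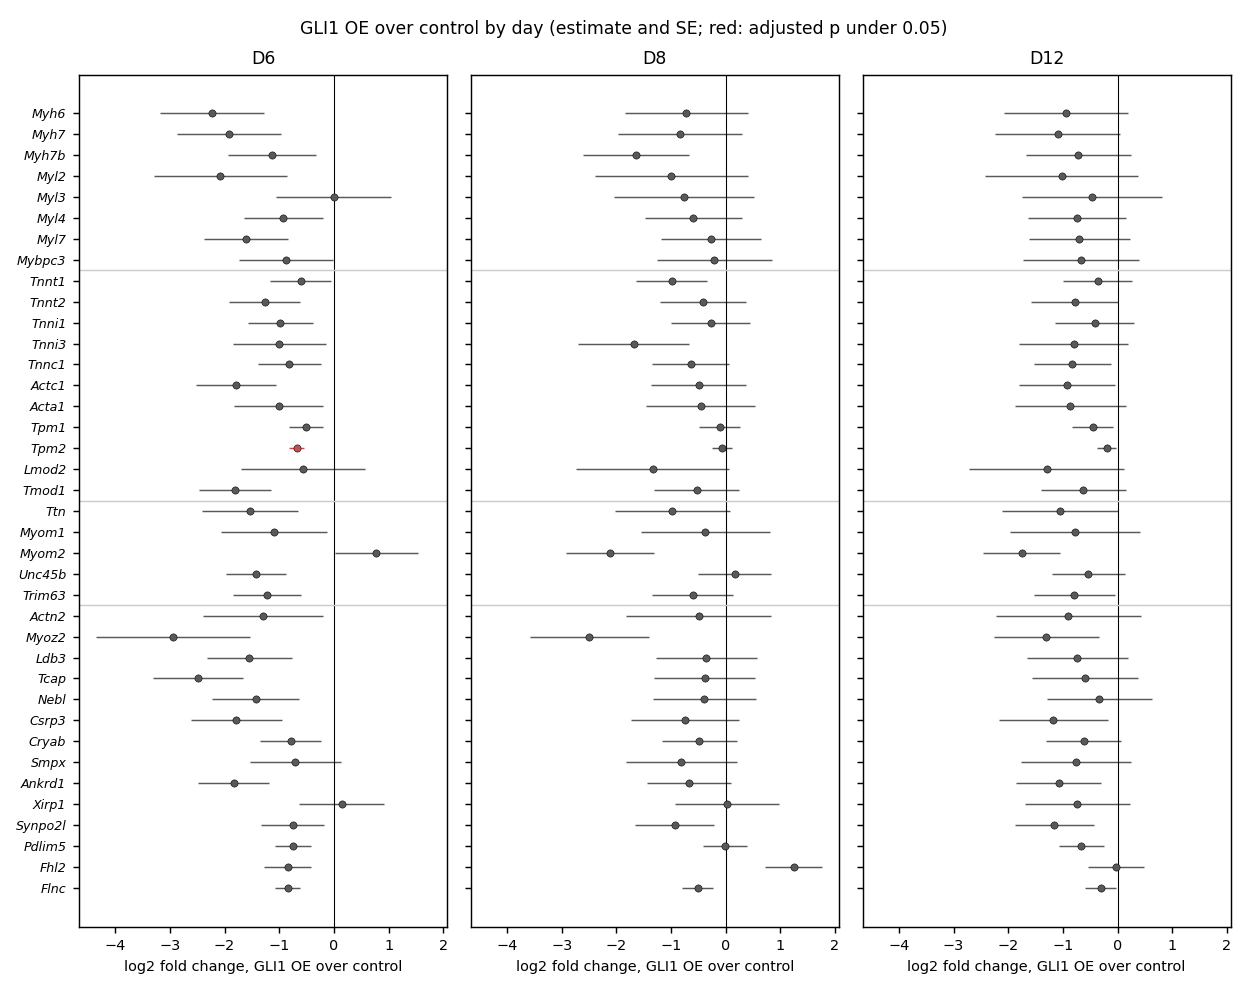
Log2 fold change of GLI1 OE over control with its SE for 38 genes at D6, D8 and D12, from the edgeR model of all 18 libraries, in the order thick filament, thin filament, titin and M-band, Z-disc. At D6, 36 of 38 points lay left of 0 and Tpm2 alone passed the threshold; at D8 and D12 none passed.

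Among the thick filament genes, both main myosin heavy chains had estimates well below 0 at D6. Myh6, the alpha myosin heavy chain, had 83.4, 339 and 92.5 CPM in GLI1 OE libraries 4, 12 and 16, against 401, 1160 and 847 CPM in control libraries 3, 11 and 15. Myh7, the beta heavy chain of the embryonic ventricle, had 232, 781 and 205 CPM against 787, 2610 and 1210 CPM. In both genes the groups did not overlap, and library 12 was the highest GLI1 OE library and library 11 the highest control. Neither passed in the model of all libraries (Myh6 log2 fold change -2.23 ± 0.957, adjusted p = 0.261; Myh7 -1.92 ± 0.95, adjusted p = 0.353, both edgeR), and both passed in the paired D6 fit of edgeR (adjusted p = 0.0424 and 0.0253). Because 22.6% of the 50-base stretches of the longest Myh6 transcript also occur in Myh7, reads between these 2 genes are uncertain, and 463 bases of Myh7 exons overlap the antisense gene Mhrt. The kit keeps strand, but whether the counting used it is not given in the sources used here.

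None of the light chain genes passed at D6, in the model of all libraries or in the paired D6 fit. The ventricular regulatory light chain Myl2 had 2.48, 24 and 4.35 CPM in D6 GLI1 OE libraries, against 15.3, 64.7 and 49.5 CPM in controls, and its atrial counterpart Myl7 had 165, 514 and 164 CPM against 565, 1150 and 859 CPM, without overlap for Myl7 alone. Their log2 fold changes were -2.08 ± 1.22 and -1.61 ± 0.765 (edgeR adjusted p = 0.462 and 0.328, and 0.0825 and 0.0543 in the paired D6 fit). The atrial essential light chain Myl4 had 236, 767 and 262 CPM against 514, 1130 and 759 CPM (log2 fold change -0.92 ± 0.729, edgeR adjusted p = 0.633, and 0.0866 in the paired D6 fit). The ventricular essential light chain Myl3 had 52.9, 141 and 75.7 CPM in GLI1 OE and 43.1, 127 and 100 CPM in control libraries, so its groups overlapped (log2 fold change -0.0015 ± 1.05, edgeR adjusted p = 1). The remaining members were Mybpc3, cardiac myosin binding protein C (mean 352 CPM in GLI1 OE and 645 CPM in control) and the minor heavy chain Myh7b (3.18 and 6.95 CPM), which had a log2 fold change of -1.12 ± 0.144 and an edgeR adjusted p of 7e-04 in the paired D6 fit. In that fit 3 of the 8 thick filament genes fell, Myh6, Myh7 and Myh7b, and 0 rose, beside 17% of all genes called lower. Myh7b was also called without each pair, while Myh6 and Myh7 were lost without libraries 3 and 4 or 11 and 12.

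Of the 11 thin filament genes, Tpm2, the beta tropomyosin, was the gene called at D6 in the edgeR model of all libraries. It had 97.7, 133 and 94.8 CPM in GLI1 OE libraries 4, 12 and 16, against 160, 196 and 166 CPM in control libraries 3, 11 and 15, with no overlap. Its log2 fold change was -0.68 ± 0.143 (edgeR adjusted p = 0.0126), small beside those of its neighbours but with little spread. Without D6 control library 11 the edgeR adjusted p was 0.0658, without GLI1 OE library 16 it was 0.0829 and without GLI1 OE library 4 it was 0.0689, so the call needed each of these 3 libraries. It was called under every other scaling, filter and tool tried and in each paired fit. Tpm1 had 1760, 3160 and 1550 CPM against 2620, 3820 and 2760 CPM, which overlapped.

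Cardiac actin Actc1 had 275, 1010 and 311 CPM in D6 GLI1 OE libraries, against 1210, 2560 and 1720 CPM in controls, and the groups did not overlap (log2 fold change -1.79 ± 0.733, edgeR adjusted p = 0.234). Tmod1, tropomodulin, which caps the pointed end of actin, had 13.2, 45.8 and 20.4 CPM against 55.6, 107 and 115 CPM (log2 fold change -1.81 ± 0.657, edgeR adjusted p = 0.171), and 1287 bases of its exons overlap Tstd2 on the opposite strand. Both passed in the paired D6 fit of edgeR (adjusted p = 0.0401 and 0.0472) but not in it without libraries 3 and 4 or without 15 and 16. The paired D6 fit also called Tpm2, Tnnt2 and the slow skeletal troponin I gene Tnni1 lower and 0 thin filament genes higher, beside 17% of all genes called lower. Skeletal actin Acta1 had 29.9, 173 and 22.6 CPM against 72.8, 299 and 80.8 CPM. Lower in mean but overlapping were Tnnc1 (219 CPM in GLI1 OE and 385 CPM in control), the cardiac troponin I gene Tnni3 (9.94 and 19.9 CPM), the slow skeletal troponin T gene Tnnt1 (1.77 and 2.7 CPM) and the actin nucleator gene Lmod2 (2.72 and 4.02 CPM).

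Titin and the M-band held genes with low estimates and 1 with an estimate above 0. The paired D6 fit of edgeR called 3 of these 5 genes lower and 0 higher, beside 17% of all genes called lower. Ttn had 89.8, 319 and 77.6 CPM in D6 GLI1 OE libraries, against 275, 717 and 422 CPM in controls. Myom1, the myomesin that cross-links myosin in the M-band, had 52.9, 235 and 69.1 CPM against 107, 437 and 219 CPM. Unc45b, a chaperone that folds myosin heads, had 55.3, 107 and 74.7 CPM against 148, 249 and 239 CPM, with no overlap (log2 fold change -1.42 ± 0.552, edgeR adjusted p = 0.205, and 0.000684 in the paired D6 fit). Trim63, an E3 ubiquitin ligase bound to titin, averaged 9.92 CPM in GLI1 OE and 23.1 CPM in control. Myom2, the M-protein of mature muscle, had the estimate above 0, with 1.03, 1.66 and 1.25 CPM in GLI1 OE and 0.17, 0.837 and 1.31 CPM in control libraries. Its groups overlapped and its log2 fold change of 0.78 ± 0.761 did not pass (edgeR adjusted p = 0.724).

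At the Z-disc the smallest p-values were those of a signalling protein, a titin cap and a filamin. Ankrd1, a titin-bound repressor known to respond to stretch and to the TEAD partner YAP, had 80.1, 240 and 53.3 CPM in D6 GLI1 OE libraries 4, 12 and 16, against 390, 630 and 315 CPM in control libraries 3, 11 and 15 (log2 fold change -1.84 ± 0.649, edgeR adjusted p = 0.156). With the replicate block in the model of all libraries its log2 fold change was -2.08 ± 0.413 and it passed (edgeR adjusted p = 0.0228), as in the paired D6 fit (0.041), though not in that fit without libraries 3 and 4 or without 15 and 16. Tcap, the telethonin that binds the end of titin, had 0.455, 1.42 and 1.25 CPM against 3.53, 6.74 and 7.24 CPM (log2 fold change -2.49 ± 0.821, edgeR adjusted p = 0.126). Flnc, the muscle filamin, had 497, 581 and 370 CPM against 850, 1010 and 744 CPM (log2 fold change -0.85 ± 0.235, edgeR adjusted p = 0.062). All 3 were without overlap, and DESeq2 called Tcap and Flnc as well as Tpm2.

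The paired D6 fit called 11 of the 13 Z-disc genes it tested, all lower, beside 17% of all genes called lower in that fit. Csrp3, the muscle LIM protein, averaged 26.9 CPM in GLI1 OE and 92.8 CPM in control, and Ldb3, an alpha-actinin ligand, 91.2 and 267 CPM. Nebl averaged 30.2 and 81.4 CPM, the small heat shock protein gene Cryab 88.7 and 153 CPM, Smpx 12.5 and 20.4 CPM, and Synpo2l 114 and 193 CPM. Pdlim5 averaged 168 and 282 CPM and Fhl2 9.97 and 17.9 CPM, both without overlap. Actn2, the sarcomeric alpha-actinin itself, had 28.3, 176 and 37.3 CPM in GLI1 OE libraries against 96.9, 318 and 177 CPM in controls and did not pass in the paired D6 fit of edgeR (adjusted p = 0.0856). Xirp1, the Xin actin-binding repeat protein, had 89.5, 194 and 99.2 CPM against 60.2, 162 and 125 CPM, which overlapped (log2 fold change 0.14 ± 0.778, edgeR adjusted p = 0.969). Myoz2 had at most 0.419 CPM in any D6 library.

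Set against the median of the 38 genes in the same library, the genes could be ordered. Subtracting that median takes out only a shift that the genes share equally, and they followed each other to different degrees. On this log2 scale Myom2 was higher by 1.98, Xirp1 by 1.16 and Myl3 by 1.01 in D6 GLI1 OE than in D6 control, and the libraries did not overlap for any of the 3. Myom2 was near the floor, with 1.03 to 1.66 CPM in D6 GLI1 OE and 0.17 to 1.31 CPM in D6 control libraries. Myl2 was lower by -1.5, Tcap by -1.46, Myh6 by -1.42, Ankrd1 by -1.08, Myh7 by -1.02 and Actc1 by -0.99, again without overlap. Tmod1, Csrp3, Myl7, Ttn, Ldb3, Nebl and Tnnt2 were also lower without overlap. Genes outside the set were not placed on this scale, so no share of all genes stands beside these named ones. For each of these the exact two-sided permutation test gave p = 0.1, the smallest that 3 libraries against 3 allow. Groups of 3 that do not overlap always give this value, so it adds nothing to the lack of overlap. Tpm2 stood above the median gene by 0.36 in D6 GLI1 OE and by 0.06 in D6 control, with overlapping groups. The ratio of the 2 essential light chains was compared too: the log2 ratio of Myl4 to Myl3 was 2.13 ± 0.327 in D6 GLI1 OE and 3.22 ± 0.334 in D6 control (SD, n = 3 each), a difference of -1.09 (exact permutation p = 0.1, adjusted p = 0.856). It had the smallest p of the ratios compared at D6, where the others gave 0.2 to 0.9 by the same test. It rests on the same libraries and Myl3 counts as the relative levels above.

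**Figure D3:**
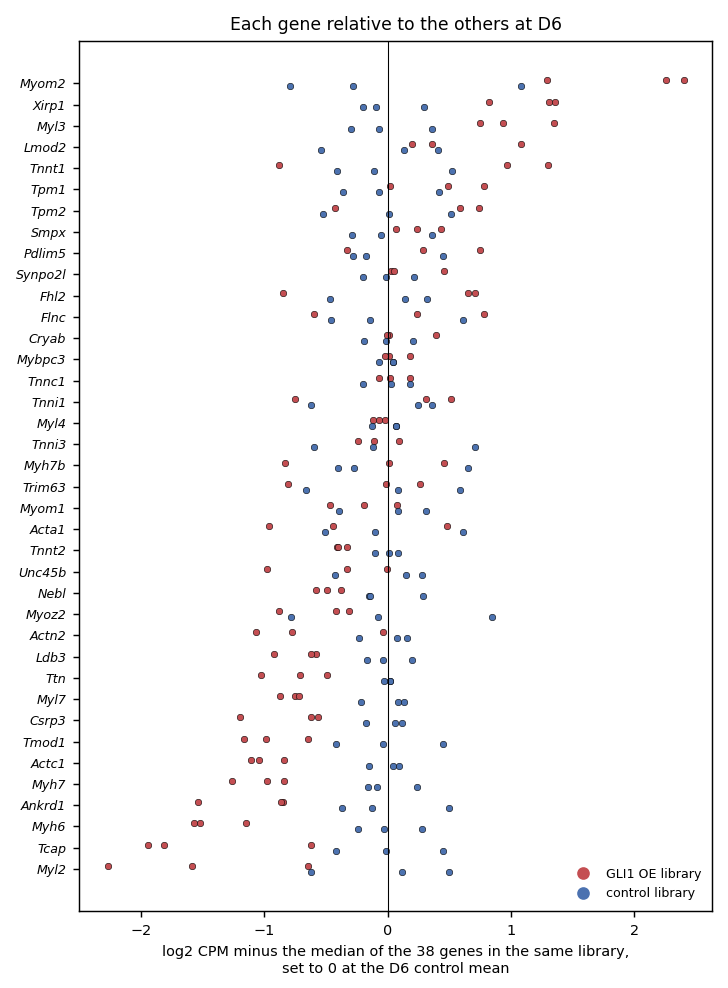
Log2 CPM of each gene at D6 minus the median of the 38 genes in the same library, with the mean of the D6 controls set to 0; each point is a library, GLI1 OE above control in each row. Myom2, Xirp1 and Myl3 stand 1.01 to 1.98 to the right of their controls at the top, and Myl2, Tcap and Myh6 stand -1.42 to -1.5 to the left at the bottom.

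Marker lists of other cell types were summed at D6 as well. Summed over 13 cardiac transcription factor genes the level was 877 to 1030 CPM in D6 GLI1 OE and 1620 to 2580 CPM in D6 control libraries, with 13 of 13 estimates below 0. Summed over 10 smooth muscle genes it was 2510 to 5180 CPM against 4890 to 7440 CPM, which overlapped. Over 8 endoderm genes it was 104 to 131 CPM against 9.07 to 14.4 CPM, over 10 skeletal muscle genes 127 to 213 CPM against 313 to 454 CPM and over 6 pluripotency genes 11 to 14.8 CPM against 25.5 to 38.1 CPM, all 3 without overlap. Most of the skeletal muscle sum was Des, shared with heart muscle, which averaged 173 CPM in D6 GLI1 OE and 374 CPM in D6 control. Blood genes (116 to 252 CPM against 211 to 740 CPM), neural genes (285 to 442 CPM against 337 to 673 CPM), fibroblast genes (600 to 1340 CPM against 534 to 1560 CPM) and endothelial genes (354 to 626 CPM against 287 to 641 CPM) overlapped. Their part in the differences of the contractile genes was not tested. A wider list of 51 further sarcomere and muscle genes, of which 44 were tested, had a median log2 fold change of -0.90 with 38 estimates below 0. Of these, Speg, a kinase of the junction between sarcomere and calcium store, fell (log2 fold change -0.75 ± 0.146, edgeR adjusted p = 0.00823), as did the Z-disc gene Pdlim3 (-2.05 ± 0.519, edgeR adjusted p = 0.0401). Casq2, the calcium buffer of the cardiac calcium store, rose (4.34 ± 0.72, edgeR adjusted p = 0.00283), averaging 18.2 ± 4.52 CPM in GLI1 OE and 0.892 ± 0.281 CPM in control (SD, n = 3 each).

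At D8 the GLI1 OE libraries differed widely from each other. The genes took 2.3% of counts in GLI1 OE library 14 and 0.391% in GLI1 OE library 18, against 2.53% and 1.24% in control libraries 13 and 17. Library 18 was the lower GLI1 OE library for 36 of the 38 genes, by a median ratio of 7.28, where the median over all genes between these libraries was 1.19. The largest ratios were those of Myh7b (16.3 CPM in library 14 and 0.772 in library 18), Myh7 (2420 and 142 CPM), Myh6 (3220 and 205 CPM) and Actn2 (665 and 44 CPM). The log2 ratio of the mean shares, GLI1 OE over control, was -0.49, and it became 0.29 without GLI1 OE library 18 and -2.27 without GLI1 OE library 14. The summed cardiac transcription factors ran from 839 to 3030 CPM over the GLI1 OE libraries and from 2030 to 2180 CPM over the controls, and the part of cell makeup in the spread was not tested.

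None of the 38 genes was called at D8 by edgeR, DESeq2 or limma-voom, where edgeR called 0% of all genes, DESeq2 0.259% and limma-voom 0%. Of the 38, 3 had an unadjusted p under 0.05 in edgeR, as had 5.95% of all genes, 35 estimates were below 0 and the median log2 fold change was -0.52, against 0.01 for all genes. Without GLI1 OE library 18, 26 estimates were above 0 (median 0.18), and without control library 13, 20 were (median 0.02). Without GLI1 OE library 14 the median was -2.72 and without control library 17 it was -0.90, while limma-voom gave -1.12 and the replicate block -1.08. The authors' deposited table for D8 lists 0 of the genes at an adjusted p under 0.05, where 0.0396% of its genes were lower. Groups did not overlap for 4 genes that were lower (15.2% of all genes) and 1 that was higher (17% of all genes). The smallest p-values belonged to Myom2, with 1.62 and 1.18 CPM in GLI1 OE and 6.19 and 5.93 CPM in control libraries (log2 fold change -2.11 ± 0.803, edgeR adjusted p = 0.792), and to Fhl2, a LIM adaptor of titin, with 40.7 and 67.7 CPM against 39.2 and 6.63 CPM (1.24 ± 0.524, edgeR adjusted p = 0.799). For Myom2 the 2 GLI1 OE libraries were close to each other although library 18 was the lower one for 36 of the 38. For Fhl2 the control libraries were far apart: without control library 13 its log2 fold change was 3.02 (edgeR adjusted p = 0.029), and without control library 17 it was 0.46.

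A further 3 genes completed the low end of D8. Myoz2, the calsarcin of the Z-disc, had 0.648 and 0.0908 CPM in GLI1 OE and 1.99 and 2.22 CPM in control libraries (log2 fold change -2.50 ± 1.09, edgeR adjusted p = 0.818). Tnni3 had 63.9 and 8.67 CPM against 156 and 77.3 CPM (-1.69 ± 1.02, edgeR adjusted p = 0.867), and Flnc 428 and 307 CPM against 586 and 463 CPM (-0.51 ± 0.287, edgeR adjusted p = 0.859). All 3 were without overlap. Tnni3, the adult cardiac troponin I, stood low against its embryonic partner too: the log2 ratio of Tnni3 to Tnni1 was -4.06 ± 0.3 in GLI1 OE and -2.57 ± 0.451 in control (SD, n = 2 each), a difference of -1.48 with an exact permutation p of 0.333, the smallest that 2 against 2 allow. Myh7b ended the list with a log2 fold change of -1.64 ± 0.972 (edgeR adjusted p = 0.864) and overlapping groups.

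At D12 all 38 estimates were below 0, with a median log2 fold change of -0.75 against -0.0038 for all genes, and none passed. That direction turned on control library 19: without it 22 of the 38 estimates were above 0 and the median was 0.02. Without GLI1 OE library 20 the median was -0.33, without GLI1 OE library 10 it was -1.40 and without control library 9 it was -1.24. The edgeR model called 0% of all genes, 1 of the 38 had an unadjusted p under 0.05, as had 5.64% of all genes, and DESeq2 and limma-voom also called 0 of them (0.073% and 0.00672% of all genes). The authors' deposited table for D12 lists 0 of the genes at an adjusted p under 0.05, where 0.0335% of its genes were lower. The share of counts was 1.17% and 0.632% in GLI1 OE libraries 10 and 20, against 0.877% and 2.05% in control libraries 9 and 19. Control library 19 was above control library 9 for 38 of the 38 genes, and without it the log2 ratio of the mean shares was 0.04 in place of -0.70.

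Myom2 had the smallest p at D12 as well, with 42.6 and 45.5 CPM in GLI1 OE and 48 and 250 CPM in control libraries (log2 fold change -1.75 ± 0.701, edgeR adjusted p = 0.811). Synpo2l had 39.5 and 22.6 CPM against 45.6 and 93.1 CPM (-1.16 ± 0.722, edgeR adjusted p = 0.922). Both were without overlap, as were Ttn, Lmod2 and Csrp3, which made 5 genes where 16.4% of all genes were lower without overlap. Pdlim5, a scaffold for protein kinases, had 261 and 156 CPM against 248 and 413 CPM (-0.67 ± 0.409, edgeR adjusted p = 0.922). Ankrd1 had 601 and 311 CPM against 557 and 1370 CPM (-1.08 ± 0.778, edgeR adjusted p = 0.949), Myoz2 4.66 and 2.37 CPM against 4.14 and 13.2 CPM (-1.31 ± 0.96, edgeR adjusted p = 0.951), and Tpm1 1230 and 674 CPM against 901 and 1720 CPM (-0.46 ± 0.375, edgeR adjusted p = 0.97). These last 3 overlapped. Without control library 19 the estimates were -0.28 for Ankrd1, -0.23 for Myoz2, 0.10 for Tpm1 and -0.11 for Myom2.

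Whether the effect of GLI1 OE differed between days was tested as an interaction. None of the 38 genes passed for D8 minus D6 (0.631% of all genes called), D12 minus D8 (0%) or D12 minus D6 (0.604%), by edgeR, DESeq2 or limma-voom. Unadjusted p-values under 0.05 numbered 3, 0 and 2 in edgeR. For D8 minus D6 they were those of Fhl2 (log2 difference 2.09 ± 0.681, edgeR adjusted p = 0.339; without D8 control library 13 it was called at 3.88 with 0.00286, and without D8 control library 17 it was 1.32), Tpm2 (0.61 ± 0.225, edgeR adjusted p = 0.452) and Myom2 (-2.89 ± 1.1, edgeR adjusted p = 0.505). For D12 minus D6 they were those of Myom2 (-2.53 ± 1.03, edgeR adjusted p = 0.463) and Tpm2 (0.49 ± 0.225, edgeR adjusted p = 0.553). Tpm2, the gene called at D6, thus had 112 and 113 CPM in D8 GLI1 OE against 111 and 124 CPM in D8 control libraries, and 108 and 120 CPM against 113 and 148 CPM at D12.

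**Figure D4:**
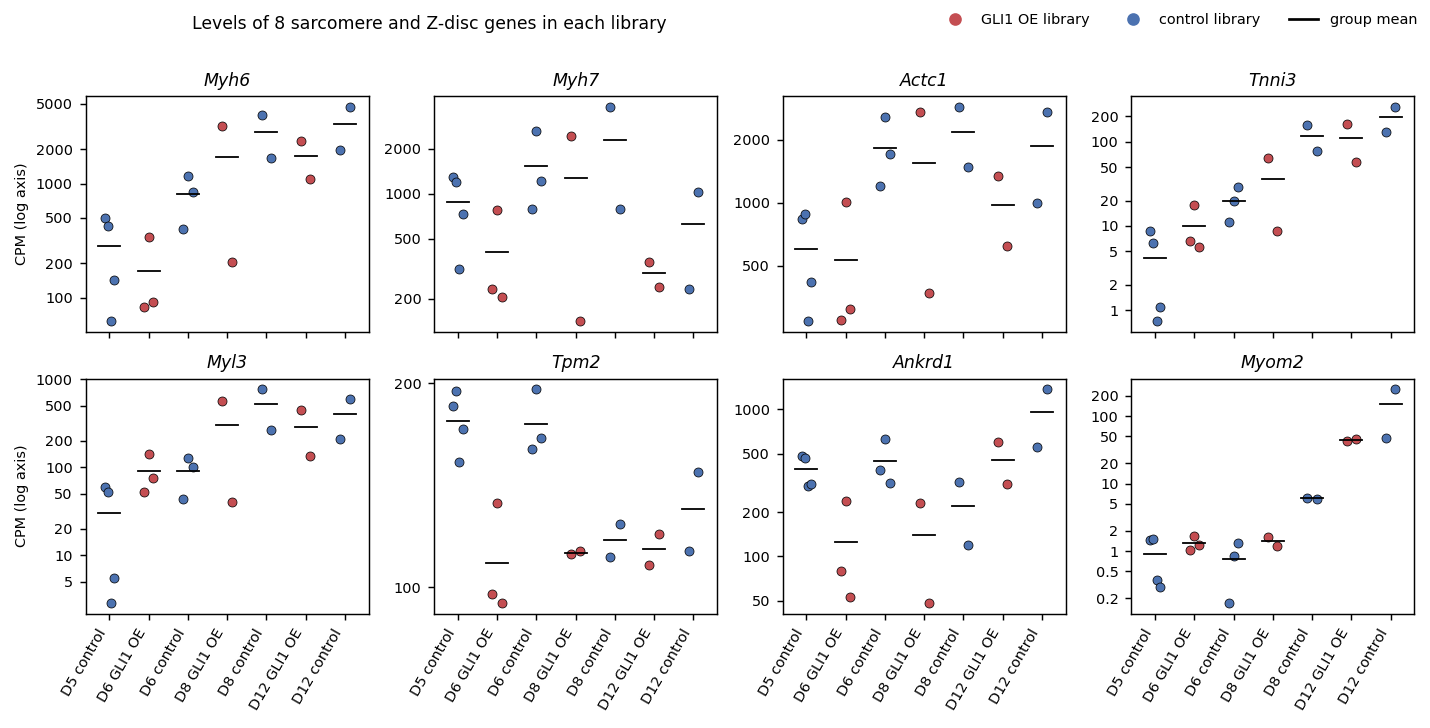
CPM on a log axis of 8 genes in every library, by group, with GLI1 OE in red, control in blue and the group mean as a line. Tpm2 lay at 94.8 to 133 CPM in D6 GLI1 OE and 160 to 196 CPM in D6 control libraries, Myl3 overlapped at D6, and Myom2 reached 42.6 to 250 CPM at D12.

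From each day of the controls to the next, few of the genes were called, although many other genes were. D12 was not tested against D5. Myh6 had 62.8 to 498 CPM in D5 and 1950 to 4670 CPM in D12 control libraries. Tnni3 had 0.746 to 8.66 CPM and 130 to 258 CPM there. Tpm1 went the other way, with 3020 to 3270 CPM in D5 and 901 to 1720 CPM in D12 control libraries. From D5 to D6, 33 of 38 estimates were above 0 with a median log2 fold change of 0.855 (28 and 0.555 without D6 control library 11), but 0 were called by edgeR, where 18.4% of all genes were (8.39% higher, 9.99% lower). Of the 38, 6 had an unadjusted p under 0.05, as had 31.4% of all genes, the smallest being that of Tcap (log2 fold change 2.19 ± 0.728, edgeR adjusted p = 0.0519), and DESeq2 called 3 and limma-voom 1 (23.2% and 18.6% of all genes). Between D6 and D8, 4 rose and 3 fell, where 17.3% of all genes were called higher and 17.5% lower (34.8% either way). The risers were Myom2 (log2 fold change 2.98 ± 0.747, edgeR adjusted p = 0.00758), Myoz2 (2.94 ± 0.978, 0.0322), Tnni3 (2.56 ± 0.917, 0.0443) and Tnnt1 (2.55 ± 0.596, 0.0051). Those that fell were Tpm1 (-1.27 ± 0.357, 0.0141), Flnc (-0.73 ± 0.267, 0.0483) and Tpm2 (-0.57 ± 0.161, 0.015).

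Several of these calls were lost when 1 of the 5 libraries was left out. Myom2 held each time (log2 fold change 2.48 to 3.59) but was lost under limma-voom (3.36, adjusted p = 0.103). Myoz2 (2.54 to 3.37), Tnni3 (1.95 to 2.96) and Flnc (-0.92 to -0.58) were lost whichever library was left out, Tpm2 without D6 control library 11 or D8 control library 13, Tpm1 without control library 13 or 17 of D8 (edgeR adjusted p = 0.0627 and 0.102) and Tnnt1 without D8 control library 13 (0.108). From D8 to D12 Myom2 (log2 fold change 4.62 ± 0.8, edgeR adjusted p = 0.000668) and Fhl2 (1.61 ± 0.528, 0.029) rose and 0 fell, where 16.9% of all genes were called higher and 19.4% lower (36.3% either way). Fhl2 was lost without D8 control library 17 (0.0739) or D12 control library 19 (0.171), and with only the groups compared (1.63, adjusted p = 0.168), where Unc45b was called lower (-1.20, 0.0268). DESeq2 (2.13, 0.029) and limma-voom (2.14, 0.0417) also called Ankrd1 higher. Myom2 ran at 1.48, 1.49, 0.373 and 0.295 CPM in D5, 0.17, 0.837 and 1.31 CPM in D6, 6.19 and 5.93 CPM in D8 and 48 and 250 CPM in D12 control libraries, and the last 2 steps were the ones called.

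In GLI1 OE cells 7 genes rose between D6 and D8 and 0 fell, where 20.3% of all genes were called higher and 19.8% lower (40.1% either way). They were Myl2 (log2 fold change 3.71 ± 1.34, edgeR adjusted p = 0.0406), Myh6 (3.32 ± 1.05, 0.0222), Tmod1 (2.57 ± 0.714, 0.0117), Fhl2 (2.44 ± 0.476, 0.00141), Tcap (2.39 ± 0.873, 0.0428), Tnnt1 (2.17 ± 0.605, 0.0119) and Trim63 (2.02 ± 0.679, 0.0297). Myl2, Myh6, Tmod1, Tcap and Tnnt1 were lost without GLI1 OE library 14 (log2 fold changes of 1.26, 0.24, 0.72, -0.13 and 0.73 in that order). Myl2, Myh6 and Tcap were also lost without GLI1 OE library 4 or 16, and Tcap without library 12, while 16 genes were called without GLI1 OE library 18, where 35.4% of all genes were. Trim63 was lost without library 14, 4 or 16. Without library 14, Fhl2 rose and Tnnc1 (-2.75, 0.0275) and Synpo2l (-3.22, 0.0131) fell, 29 of 38 estimates were below 0 and the median was -1 in place of 1.33. Tpm1 was called lower by DESeq2 (-0.89, 0.0278) and by edgeR without GLI1 OE library 16 (-1.06, 0.042). From D8 to D12 Myom2 (4.97 ± 0.85, 0.000731) and Myoz2 (3.23 ± 1.11, 0.0371) rose and Unc45b fell (-1.90 ± 0.687, 0.0469), where 15.9% of all genes were called higher and 17.5% lower (33.5% either way). Without GLI1 OE library 14 the last comparison called 6 genes, beside 27.2% of all genes, and the Unc45b estimate was -0.52. Unc45b was lost without any 1 of libraries 14, 10 and 20, and Myoz2 without library 18 (0.178) or 10 (0.154). Against the D5 controls, D6 GLI1 OE cells had lower Pdlim5 (log2 fold change -0.96 ± 0.318, edgeR adjusted p = 0.0362), Flnc (-0.81 ± 0.223, 0.0142) and Tpm2 (-0.70 ± 0.135, 0.00147) and no higher gene, where 14.8% of all genes were called higher and 14.7% lower (29.5% either way). Flnc was lost without GLI1 OE library 16 (0.0819), and Pdlim5 without any 1 of D5 control libraries 1, 2 and 4 and GLI1 OE libraries 4 and 16.

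Ratios of related genes within a library, taken of counts plus 0.5 and not per length, followed the days in their group means. In controls the log2 ratio of Myh6 to Myh7 averaged -1.89 ± 0.523 at D5, -0.89 ± 0.333 at D6, 0.57 ± 0.716 at D8 and 2.63 ± 0.623 at D12 (SD, n = 4, 3, 2 and 2). The ratio of alpha to beta heavy chain was thus higher at each later day. The ratio of Tnni3 to Tnni1 averaged -6.04, -4.73, -2.57 and -1.16, that of Myl7 to Myl2 5.51, 4.49, 2.38 and 1.02, and that of Tnnt2 to Tnnt1 8.97, 8.62, 6.17 and 5.27. D5 and D6 controls overlapped for Myl7 to Myl2 (3.72 to 7.28 and 4.12 to 5.2) and Tnnt2 to Tnnt1 (8.68 to 9.22 and 8.17 to 8.92). Myl4 to Myl3 averaged 4.2, 3.22, 0.687 and 0.585, and its D8 (0.144 to 1.23) and D12 (0.439 to 0.731) controls overlapped. Cardiac over skeletal actin, Actc1 to Acta1, averaged 2.23, 3.86, 5.58 and 6.02. In the same order of days the GLI1 OE cells had Myh6 to Myh7 ratios of -1.28 ± 0.175, 0.47 ± 0.0813 and 2.47 ± 0.396 at D6, D8 and D12 (SD, n = 3, 2 and 2). Over the 6 ratios and 3 days, 18 exact permutation tests of GLI1 OE against control gave adjusted p-values of 0.856 to 1. The smallest p is 0.1 for 3 libraries against 3 and 0.333 for 2 against 2, so none of these tests could pass.

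**Figure D5:**
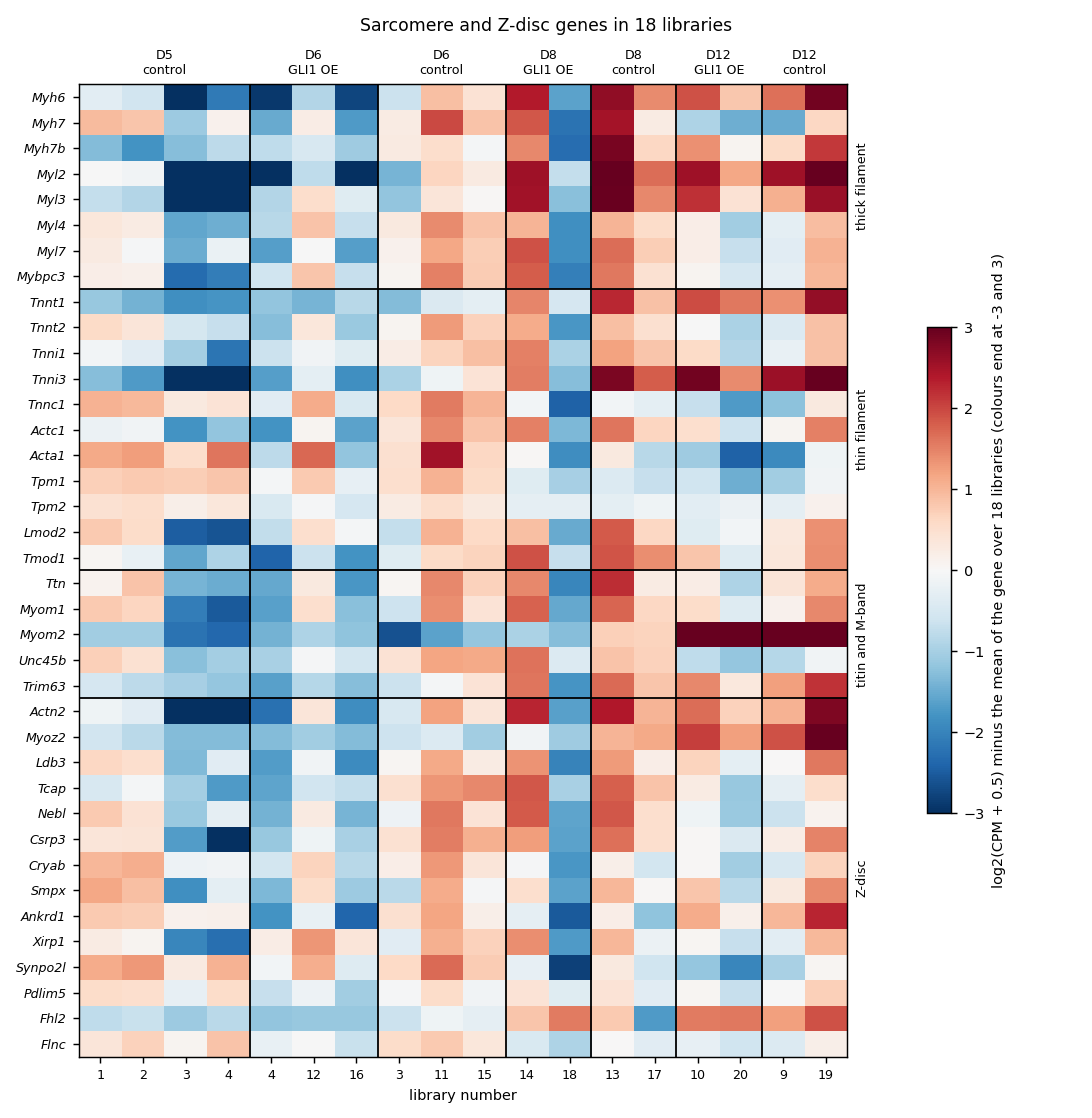
Log2(CPM + 0.5) of 38 genes in 18 libraries minus the mean of the gene, from blue (low) to red (high), with rows in the order thick filament, thin filament, titin and M-band, Z-disc and columns by group and library number. Most rows share their column pattern, with D8 GLI1 OE library 18 below library 14 for 36 of 38 genes, while Tpm1, Tpm2, Myom2, Fhl2 and Flnc follow other patterns.

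The genes rose and fell together across libraries to different degrees. Each gene was correlated with the mean of the other 37 over the 18 libraries, which share days, depth and cell makeup, so the values are a description. Ttn (Pearson r = 0.969), Actc1 (0.967), Ldb3 (0.96) and Myom1 (0.941) followed the rest most closely. Tpm1 (0.0986), Fhl2 (0.252), Tpm2 (0.26) and Flnc (0.314) followed least, and Acta1 (0.342) and Myom2 (0.352) came next. The median r was 0.77, 17 genes had at least 0.8 and 8 had under 0.5. With the group means taken out the median was 0.926, Fhl2 was lowest at 0.229 and Tpm1 had 0.75. Between replicates of a group the genes varied more than most: the median ratio of the highest to the lowest library was 3.01 in D6 GLI1 OE and 2.17 in D6 control, where over all genes it was 1.21 in each.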

How the data were processed

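The authors deposited raw counts per gene for 18 libraries of polyA RNA (TruSeq, stranded single-end reads, per the labels' protocols), TPM for the D5 controls, and tables of their own comparisons with log2 fold changes and p-values. For aligner, counter and genome build the sources used here give no name. The members and lists were chosen with earlier results of these data known.

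Counts were tested in R 4.3.3 with the robust quasi-likelihood test of edgeR 4.0.16 on all 18 libraries together, after TMM scaling and a filter on a minimum count of 10, which kept 14892 of 23337 genes and 38 of 39 members. P-values were adjusted by Benjamini-Hochberg over all genes tested, with a threshold of 0.05, and CPM used TMM-scaled totals. The log2 CPM behind correlations and relative levels used a prior count of 2. DESeq2 1.42.0 and limma 3.58.1 (voom), other scalings, no filter, only the groups compared and leaving out each library were alternatives. The test was checked on simulated data.

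The count columns carry library numbers and no replicate numbers, so the planned pairing by replicate number was replaced by adjacent numbers after the data were seen. At D6 the deviations of adjacent libraries correlated at 0.617, 0.445 and 0.52 over 14892 genes, which met the rule for pairing of each pair being over 0.1. At D8 the value was 0.491 and at D12 it was -0.231.

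Genes named in full were the members past the threshold or, where fewer than 6 passed, those of smallest p to make 6. For time courses they were the 6 of largest change past the threshold. Members described beyond these were chosen by role, and the paired D6 calls after their values were seen. Sequences came from RefSeq, read with Python 3.11.15 and pandas 2.3.3, and matplotlib 3.10.9 drew the figures.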

Additional observations from a re-analysis of the deposited data

Results flagged for a closer look

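Pdlim5, a Z-disc scaffold, had 212 CPM in D5 control library 3 and 357 to 369 CPM in the other 3 D5 control libraries, so library 3 lay far from the others. It was the 1 gene with such a library among 38 tested in the D5 controls, the only group large enough, and chance alone marks about 1 in 20.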

How the results depend on the processing

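The number of genes called for D6 GLI1 OE over control was 1, and it was 3 with DESeq2, 8 with only the groups compared, 2 with the replicate block of adjacent library numbers, and 22 with that block in the D6 libraries alone, or 11, 26 and 26 there without libraries 3 and 4, 11 and 12, or 15 and 16. At D8 and D12 the block changed no call. Crossed pairs at D12 called 0 of the genes. For D6 over D5 control the count was 0, against 1 with TMM scaling without the sarcomere genes, 3 with DESeq2, 1 with limma-voom and 3 with only the groups compared (18.4%, 23.2%, 18.6% and 15.2% of all genes). With only the groups compared it was 13 in place of 7 for D8 over D6 control (40% of all genes), 2 in place of 7 for D8 over D6 GLI1 OE (31.7%) and 0 in place of 3 for D12 over D8 GLI1 OE, where it called 0% of all genes in place of 33.5%. DESeq2 and limma-voom called 11 and 2 for D8 over D6 GLI1 OE (41.7% and 38.3% of all genes). Leaving out 1 library gave 0 to 1 for GLI1 OE at D6, at D8, for D6 over D5 control and for the effect at D8 minus D6, 2 to 4 for D8 over D6 control, 1 to 3 for D12 over D8 control, 3 to 16 for D8 over D6 GLI1 OE (22.5% to 35.4% of all genes), 1 to 6 for D12 over D8 GLI1 OE (20.1% to 27.2%) and 1 to 5 for D6 GLI1 OE over D5. Beside these counts, 2.22% to 3.08% of all genes were called for GLI1 OE at D6 and 10.5% to 18.4% for D6 over D5 control. For D6 GLI1 OE over D5 the share was 19.7% to 30.2%. For D8 over D6 control without 1 D6 library it was 27.4% to 29.3%, where 3 to 4 of the 38 were called. For D8 over D6 GLI1 OE it was 32.2% without GLI1 OE library 16, where 4 were called, and 34.8% without library 4, where 3 were. Counts of called genes from fits that left 1 library in a group are not given here. They include every fit for GLI1 OE at D8 or D12 and for D12 over D8. Of the 38 estimates for GLI1 OE, 22 changed sign at D12 without control library 19, and at D8 23 did without GLI1 OE library 18 and 17 without control library 13. Without GLI1 OE library 14, 22 changed sign for D8 over D6 GLI1 OE and 23 for D12 over D8 GLI1 OE. Among the genes followed by name in each comparison, those that changed sign were Tpm1 for GLI1 OE at D12 (-0.954 to 0.096), Tcap for D8 over D6 GLI1 OE (-0.134 to 3.26) and for the effect at D8 minus D6 (-0.413 to 2.99), and Unc45b (-1.38 to 0.671), Tnnt1 (-0.276 to 2.07) and Myh7b (-0.637 to 4.39) for the effect at D12 minus D8. The cause was not tested. With 2 libraries a group, D8 and D12 have little power, and a p that misses the threshold does not show that expression was alike.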
